A study of Mus musculus with 8 samples.

Results

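Heat shock chaperones are proteins that bind unfolded or newly made polypeptides and help them fold, and 10 of their genes were followed in thymic epithelial cells (TEC), the stromal cells on which thymocytes mature. The genes were chosen by symbol, and all 10 were found among the 27514 genes that the 8 count matrices share. They comprised 6 genes that cells switch on under heat or protein damage (Hspa1a, Hspa1b, Dnajb1, Hsph1, Hsp90aa1 and Hspb1), 2 cytosolic chaperones that most cells make all the time (Hspa8 and Hsp90ab1), and 2 chaperonin genes of the mitochondrion (Hspd1 and Hspe1). These classes come from textbook knowledge and not from the values. All mice were WT of the strain labelled C57 B6 (CD45.2), the tissue was thymus, and live DAPI- EpCAM+ CD45- cells had been sorted for single-cell RNA sequencing. The E13.5 TEC library held the total epithelium of E13.5 embryos. Cortical TEC (cTEC) were Ly51+ UEA-1- and came from E15.5 and E17.5 embryos, from the newborn (NB) and from the adult, and adult medullary TEC (mTEC) were Ly51- UEA-1+. The adult cTEC and adult mTEC groups had 2 libraries each, the other 4 groups had 1 each, and the labels do not say how many animals made up a library.

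The stage comparisons carry a limit in the preparation of the tissue. By the methods of the study, embryonic thymi were dispersed briefly with trypsin and EDTA and were not enriched, whereas newborn and adult thymi were digested for longer, at the same temperature, with Liberase TM and DNase and then passed over Percoll. Stage before or after birth and tissue preparation therefore cannot be told apart in these libraries. The steps from E13.5 to E15.5 and from NB to adult, and the adult cTEC and mTEC libraries, share a preparation, although the first of these also changes the sort from total TEC to cTEC. The libraries were captured as 2 data sets. The second held the E17.5 library with adult cTEC and mTEC replicate 2, and the first held the rest.

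In the heat shock response, unfolded proteins draw chaperones away from heat shock factor 1 (Hsf1), which then binds repeats of the letters GAA in inverted order, the heat shock element, upstream of its target genes. HSP70 proteins (Hspa1a, Hspa1b, Hspa8) bind exposed hydrophobic stretches and are handed clients by J-domain proteins such as Dnajb1, while Hsph1, an HSP110 protein, exchanges their nucleotide. HSP90 proteins (Hsp90aa1, Hsp90ab1) finish the folding of kinases and hormone receptors, Hspb1 is a small chaperone that holds unfolded proteins and binds the cytoskeleton, and Hspd1 (HSP60) and its lid Hspe1 (HSP10) fold proteins inside mitochondria. Hspa1a and several of its partners are also known to be induced when tissue is dissociated into single cells.

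Hspa1a (ENSMUSG00000091971, chr17:34969190-34972156, minus strand) and Hspa1b (ENSMUSG00000090877, chr17:34956436-34959238, minus strand) lie 9951 bases apart in GRCm38, the build that is also named mm10. Their coding sequences were 99.5% identical. None of the 90-base words in the last 500 bases of the Hspa1a transcript occurred in the Hspa1b transcript, but 49.3% of such words over the whole Hspa1a transcript did, so the split of counts between the copies is uncertain wherever reads fell upstream of the 3′ end, and their sum is given as well. Hspd1 (chr1:55077835-55088243, minus strand) and Hspe1 (chr1:55088132-55091307, plus strand) overlap by 112 bases at their starts and run in opposite directions. The other members lie at chr8:83608193-83612653 (Dnajb1), chr5:149614287-149636376 (Hsph1), chr12:110690605-110702728 (Hsp90aa1), chr5:135887919-135889563 (Hspb1), chr9:40800984-40810087 (Hspa8) and chr17:45567775-45573271 (Hsp90ab1).

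RefSeq promoter windows of GRCm38.p6, running from 250 bases before to 50 bases after a gene's start, were at hand for 7 of the 10 members, Hspa1a, Hspa1b, Dnajb1, Hsph1, Hspb1, Hspd1 and Hspe1. They were searched for 2 inverted units of the heat shock element, GAANNTTC or TTCNNGAA, which read the same on both strands, and for 3 units, GAANNTTCNNGAA or TTCNNGAANNTTC, each of which holds both shorter forms. By gene, the 2-unit letters stood in a promoter of 6 of the 7 members and the 3-unit letters in a promoter of 3 of the 7. By promoter, the 2-unit letters stood in 7 of the 10 member promoters and in 15.1% of 32817 promoters in the table. The 3-unit letters stood in 4 of the 10 member promoters and in 0.603% of all promoters. The windows below are shown because they carry these letters in the inducible HSP70 pair, in Hspb1 and Hsph1, and in the stretch that Hspd1 and Hspe1 share. Capitals mark the matched units, and all are written 5′ to 3′ on the strand of the gene.
Hspa1a, chr17:34972242-34972271, minus strand: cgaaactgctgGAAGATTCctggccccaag
Hspa1b, chr17:34959324-34959353, minus strand: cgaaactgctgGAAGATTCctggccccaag
Hspb1, chr5:135887791-135887820, plus strand: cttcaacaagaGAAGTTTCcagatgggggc
Hspb1, chr5:135887811-135887840, plus strand: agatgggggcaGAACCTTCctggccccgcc
Hsph1, chr5:149636351-149636380, minus strand: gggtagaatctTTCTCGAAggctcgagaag
Hsph1, chr5:149636280-149636308, minus strand: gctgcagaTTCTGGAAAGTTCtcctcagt
Hspd1, chr1:55088053-55088082, minus strand: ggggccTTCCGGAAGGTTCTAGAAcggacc
Hspe1, chr1:55088053-55088082, plus strand: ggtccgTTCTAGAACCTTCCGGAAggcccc
The windows of Hspa1a and Hspa1b were identical, with the match starting 104 bases before each gene's start. The windows of Hspd1 and Hspe1 are the same stretch read from either strand. Their 18 capitals start 89 bases before the RefSeq start of Hspe1, which differs from the start of that gene given above. They start 144 bases before the more downstream of the 2 RefSeq starts of Hspd1. This places them within the Hspd1 gene as given above, and the promoter at the other Hspd1 start held no match. The 3-unit match of Hsph1, in the lower of its windows, starts after the gene's start, by 36 or 15 bases for its 2 RefSeq starts. No match was found in the 300 bases of either Dnajb1 promoter.

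After the limits on cell quality and the removal of named non-epithelial clusters, 25376 cells remained, from 493 in adult cTEC replicate 1 to 8350 in the E17.5 library, with a median of 3955 to 11386 unique molecular identifiers (UMIs, each counted once per captured transcript) per cell. Levels are given as CPM, UMI counts scaled to one common total per library, from counts at transcripts' 3′ ends that were not scaled by gene length. Intervals cover counting error only. Psmb11 and Aire followed the sorts, with Psmb11, the cortical proteasome subunit, at 667 and 1395 CPM in adult cTEC and 3.85 and 8.57 CPM in adult mTEC, and Aire, the medullary transcription regulator, at 9.27 and 2.72 CPM in adult cTEC and 435 and 399 CPM in adult mTEC. In the adult cTEC libraries, 66.1% and 79.6% of cells had a UMI of Psmb11 or Prss16. Summed over 6 mTEC I markers (Ccl21a, Krt5, Krt14 and others), of which all had a UMI in both, adult cTEC replicate 1 held 6894 CPM and replicate 2 held 1906 CPM, beside 202 to 922 CPM in the fetal and NB libraries and 8774 and 4257 CPM in adult mTEC. By this sum adult cTEC replicate 1 lay above adult mTEC replicate 2. The immediate early genes, which rise within minutes of a stimulus, summed to 765, 581 and 1055 CPM in the E13.5, E15.5 and E17.5 libraries, to 12044 CPM in NB cTEC, to 20546 and 12766 CPM in adult cTEC and to 11634 and 6620 CPM in adult mTEC. All 5 libraries prepared with Liberase TM and Percoll were above the 3 prepared with trypsin, and the part of this difference in the chaperone results was not tested.

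Hspa1a was scarce before birth and abundant after it. Its level was 3.50 CPM in E13.5 TEC, 8.66 CPM in E15.5 cTEC, 16.3 CPM in E17.5 cTEC and 112 CPM in NB cTEC. Adult cTEC held 713 and 211 CPM, and adult mTEC 246 and 117 CPM. Each fetal library was below each postnatal one, and the adult cTEC replicates stood further apart from each other than the adult mTEC replicates did. Counting error was small against these gaps, with a 95% Poisson interval of 2.59 to 4.62 CPM in the E13.5 library, which had 49 Hspa1a UMIs, and of 677 to 749 CPM in adult cTEC replicate 1. Hspa1b followed at a lower level, with 0.428, 1.49 and 2.26 CPM in the E13.5, E15.5 and E17.5 libraries and 5.53 CPM in NB cTEC. It reached 35.2 and 32.9 CPM in adult cTEC and 18.6 and 17.7 CPM in adult mTEC, and here the replicates of each adult group lay close together. The UMI ratio of Hspa1b to Hspa1a was 0.0494 in the first adult cTEC library and 0.156 in the second. In adult mTEC it was 0.0757 and 0.151, so the replicates of both adult groups lay further apart in Hspa1a than in its near-identical neighbour, and the ratio was lower in the adult libraries of data set 1. It was 0.0492 in NB cTEC and 0.122 to 0.172 in the fetal libraries.

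**Figure D1:**
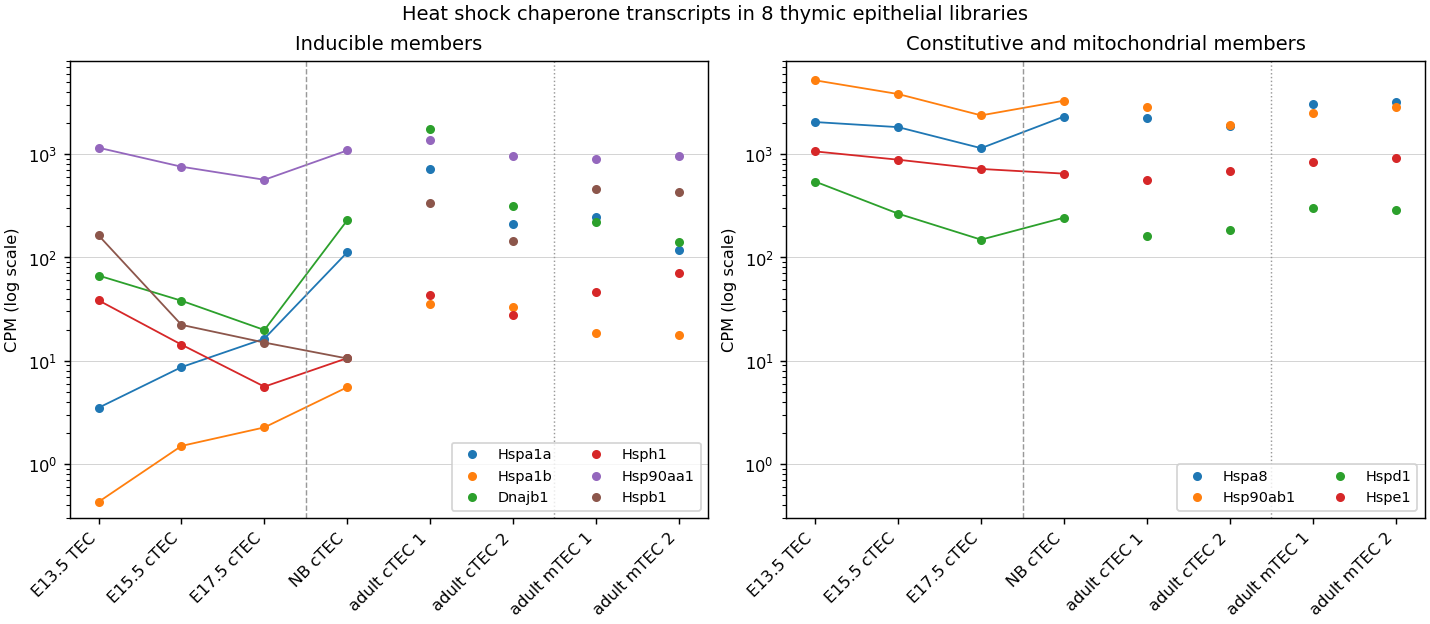
CPM of each member in the 8 libraries, on a log axis. Points are libraries, lines join the 4 single-library stages, the dashed line separates the fetal from the postnatal libraries and the dotted line the cTEC line from adult mTEC. Hspa1a ran from 3.50 in E13.5 TEC to 713 in adult cTEC replicate 1, whereas Hspe1 stayed between 568 and 1066.

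Dnajb1, the HSP40 partner of inducible HSP70, was at 66.8, 38.1 and 19.8 CPM in the E13.5, E15.5 and E17.5 libraries. NB cTEC held 229 CPM, adult cTEC 1773 and 312 CPM, and adult mTEC 222 and 142 CPM. The order of the fetal libraries was therefore the opposite of that of Hspa1a, while the step across birth went the same way, and adult cTEC replicate 1 again stood above all others. Hsph1, the HSP110 exchange factor, did not separate the stages. It was at 38.4, 14.3 and 5.60 CPM in the E13.5, E15.5 and E17.5 libraries, 10.6 CPM in NB cTEC, 43.5 and 27.7 CPM in adult cTEC, and 45.9 and 71.3 CPM in adult mTEC, with E13.5 TEC between the adult cTEC replicates.

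Hsp90aa1, the stress-responsive form of HSP90, had the smallest range of the inducible members. It was at 1157, 758 and 566 CPM in the E13.5, E15.5 and E17.5 libraries, 1090 CPM in NB cTEC, 1372 and 960 CPM in adult cTEC and 906 and 961 CPM in adult mTEC, a 2.42-fold range in which fetal and postnatal libraries overlapped. Hspb1 had its own pattern. It was at 164 CPM in E13.5 TEC, 22.2 CPM in E15.5 cTEC, 14.98 CPM in E17.5 cTEC and 10.5 CPM in NB cTEC, and then at 335 and 145 CPM in adult cTEC and 463 and 434 CPM in adult mTEC. NB cTEC, with high immediate early genes and raised Hspa1a, was thus the lowest of the 8 libraries for Hspb1.

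The constitutive members moved little. Hspa8, the constant HSP70 of the cytosol, was at 2052, 1832 and 1146 CPM in the E13.5, E15.5 and E17.5 libraries, 2321 CPM in NB cTEC, 2231 and 1885 CPM in adult cTEC and 3087 and 3235 CPM in adult mTEC. Hsp90ab1, the constant HSP90, was highest in E13.5 TEC at 5204 CPM, and then lay at 3834 CPM in E15.5 cTEC, 2382 CPM in E17.5 cTEC, 3305 CPM in NB cTEC, 2897 and 1914 CPM in adult cTEC and 2533 and 2852 CPM in adult mTEC. The highest library exceeded the lowest 2.82-fold for Hspa8 and 2.72-fold for Hsp90ab1, against 204-fold for Hspa1a, 89.4-fold for Dnajb1, 82.2-fold for Hspa1b, 44.1-fold for Hspb1 and 12.7-fold for Hsph1, while the inducible Hsp90aa1, at 2.42-fold, ranged no wider than this pair.

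The chaperonin pair was highest in the youngest epithelium. Hspd1 was at 543 CPM in E13.5 TEC, 266 CPM in E15.5 cTEC, 149 CPM in E17.5 cTEC, 243 CPM in NB cTEC, 161 and 183 CPM in adult cTEC and 300 and 287 CPM in adult mTEC. Hspe1 was at 1066, 886 and 721 CPM in the fetal libraries by age, 649 CPM in NB cTEC, 568 and 691 CPM in adult cTEC and 846 and 921 CPM in adult mTEC. In adult epithelium both replicates of mTEC were above both of cTEC for either gene. The UMI ratio of the pair was not fixed, and Hspe1 exceeded Hspd1 1.962-fold in E13.5 TEC and 4.84-fold in E17.5 cTEC.

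Set as sums, the 6 inducible members amounted to 0.197, 0.149 and 0.177 of the 2 constitutive ones in the E13.5, E15.5 and E17.5 libraries. The ratio was 0.259 in NB cTEC, 0.833 and 0.444 in adult cTEC and 0.338 and 0.286 in adult mTEC. By this ratio every postnatal library lay above every fetal one, by little in NB cTEC and by most in adult cTEC replicate 1. The inducible sum itself was 1430 CPM in E13.5 TEC and 1458 CPM in NB cTEC, over constitutive sums of 7257 and 5626 CPM. Hsp90aa1 alone held 1157, 758 and 566 CPM of inducible sums of 1430, 843 and 625 CPM in the E13.5, E15.5 and E17.5 libraries. It held 1090 of 1458 CPM in NB cTEC and 1372 of 4271 and 960 of 1689 CPM in adult cTEC. In adult mTEC it held 906 of 1900 and 961 of 1742 CPM.

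To ask whether the libraries differed across birth, the 3 fetal libraries, of which E13.5 held total TEC and not sorted cTEC, were compared with NB cTEC and both adult cTEC libraries in edgeR, with the data set as a term. Of 14317 genes tested, 13 were called at an adjusted p under 0.05, or 0.0908%, and all were higher after birth. None of the 10 members was called by edgeR's quasi-likelihood test. The log2 difference of postnatal over fetal libraries was 5.25 for Hspa1a (SE 0.999, adjusted p = 0.103), 4.13 for Dnajb1 (SE 0.767, adjusted p = 0.0983) and 4.07 for Hspa1b (SE 0.811, adjusted p = 0.108). These 3 had an unadjusted p under 0.05, as did 2770 of the genes tested. DESeq2 called the same number of members, 3, among 1702 genes called in all. The edgeR test also called 3 members, among 588 genes, when NB cTEC was left out. It called 3 members, among 510 genes, when genes with low counts were not filtered. The other members had smaller estimates, of 1.63 for Hspb1, 0.72 for Hsph1, 0.48 for Hsp90aa1 and 0.37 for Hspa8, and of -0.48 for Hsp90ab1, -0.49 for Hspe1 and -0.58 for Hspd1, with adjusted p from 0.359 to 0.619. Leaving out adult cTEC replicate 1 turned the estimate of Hspb1 to -0.11, and leaving out replicate 2 turned that of Hsph1 to -0.018.

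The slope per stage over the same 6 libraries, from E13.5 through E15.5, E17.5 and NB to the adult, called 1127 of 14317 genes (7.87%), 711 higher (4.97%) and 416 lower (2.91%) with age. Of the 10 members 3 were called, and all 3 rose. The log2 slope was 1.90 for Hspa1a (SE 0.115, adjusted p = 0.00308), 1.56 for Hspa1b (SE 0.155, adjusted p = 0.00677) and 1.29 for Dnajb1 (SE 0.238, adjusted p = 0.0290). No member was called lower by edgeR. Hsp90ab1, Hspd1 and Hspe1 had slopes of -0.19, -0.29 and -0.20 with unadjusted p under 0.05 and adjusted p = 0.176, 0.162 and 0.166 by edgeR. DESeq2 called 5 members, among 2900 genes called in all, against the 1127 of edgeR. Without adult cTEC replicate 1, the slope of Hspa1a was 1.75 and remained called, while those of Hspa1b and Dnajb1 (1.43 and 1.01) were not, and the genes called over all fell to 23. Without adult cTEC replicate 2, 479 genes and 2 members were called. The call of Dnajb1 was also lost without the data set term (1.11), without E15.5 cTEC (1.21), without E17.5 cTEC (1.19) and in data set 1 alone (1.19). Fetal steps and the step across birth enter this slope together, and the change of preparation lies between E17.5 and NB.

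**Figure D2:**
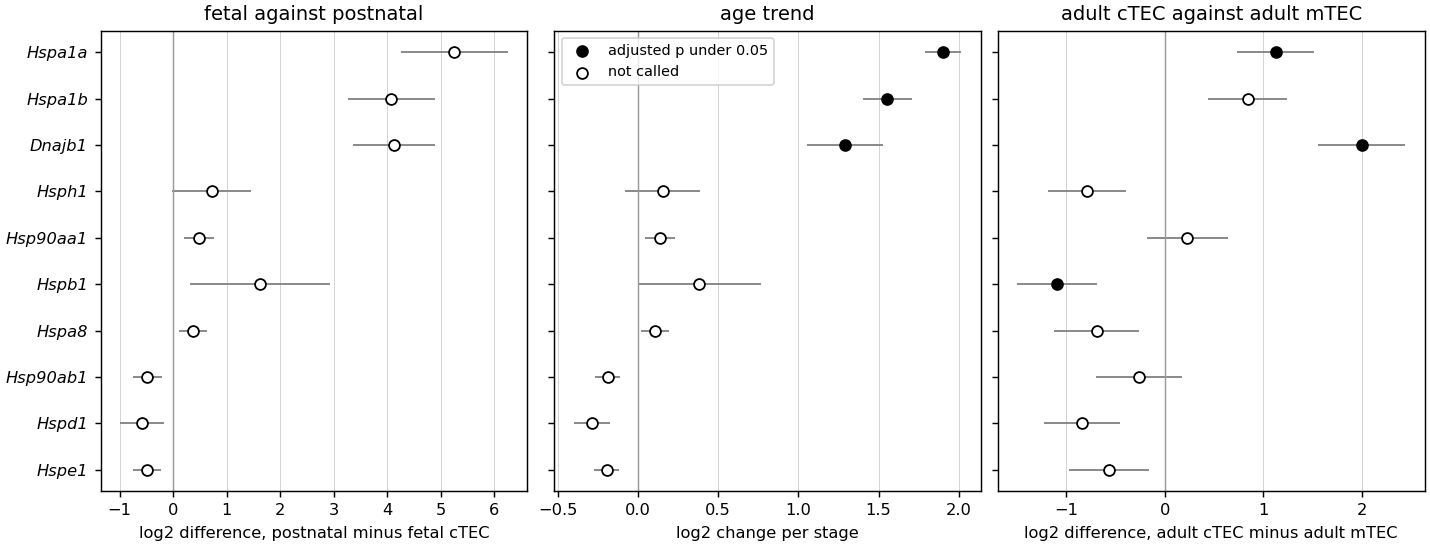
Log2 difference or slope of each member in the 3 edgeR fits, with bars of 1 standard error. Filled points had an adjusted p under 0.05. Hspa1a, Hspa1b and Dnajb1 lay at 4.07 or more in the comparison across birth without passing the threshold, and the other 7 members lay between -0.58 and 1.63.

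Single steps that share a preparation and a data set have 1 library at each end and carry no test. From E13.5 TEC to E15.5 cTEC, Hspa1a was 2.48-fold and Hspa1b 3.48-fold as high, whereas Hspb1 was at 0.136 of its E13.5 level, Hsph1 at 0.372, Hspd1 at 0.489 and Dnajb1 at 0.570. The log2 ratio of the median gene in this step was -0.07. This step also goes from total TEC to sorted cTEC, with the mTEC I marker sum at 922 and then 202 CPM and the cTEC marker sum at 1782 and then 9037 CPM, and the part of this change of cells was not tested. From NB to adult cTEC replicate 1, with the Liberase TM and Percoll preparation at both ends, the median gene stood at -0.20. In this step Hspb1 was 31.9-fold, Dnajb1 7.73-fold, Hspa1b 6.37-fold, Hspa1a 6.35-fold, Hsph1 4.11-fold and Hsp90aa1 1.26-fold as high. Hspa8, Hsp90ab1, Hspe1 and Hspd1 stood at 0.961, 0.877, 0.874 and 0.661 of their NB level. Against adult cTEC replicate 2, which is of the other data set and was set beside this step after seeing the data, the folds over NB were 13.8 for Hspb1, 1.36 for Dnajb1, 5.95 for Hspa1b, 1.88 for Hspa1a and 2.62 for Hsph1, with Hsp90aa1 at 0.881 and the median gene at -0.26. Hspa8, Hsp90ab1, Hspe1 and Hspd1 then stood at 0.812, 0.579, 1.065 and 0.751. The size of the step thus depended on the adult library, most of all for Dnajb1. The mTEC I marker sum in the step to adult cTEC replicate 1 went from 418 to 6894 CPM and the immediate early sum from 12044 to 20546 CPM. The endothelial sum went from 13.8 to 72.3 CPM and the thymocyte sum from 15.8 to 48.6 CPM. The parathyroid sum went from 2.33 to 33.4 CPM and the tuft cell sum from 18.1 to 59.8 CPM. The myeloid and B cell sum went from 650.4 to 1298 CPM, of which Cst3 alone held 646 and 1039 CPM. In adult cTEC replicate 2 the mTEC I sum was 1906 CPM and the immediate early sum 12766 CPM. The endothelial, thymocyte, parathyroid and tuft cell sums there were 16.6, 114, 2.72 and 14.6 CPM. The myeloid and B cell sum was 798 CPM, with Cst3 at 764 CPM. The sum over 8 mesenchymal markers went from 33.8 to 510 CPM, with Col1a1 and Pdgfra at 0 in adult cTEC replicate 1, and was 318 CPM in adult cTEC replicate 2, 8.36 to 30.6 CPM in the fetal libraries and 99.7 and 69.1 CPM in adult mTEC. The part of these markers in the difference was not tested.

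Adult cTEC and mTEC share age and preparation. Of 15627 genes tested with the data set as a term, 5063 were called (32.4%), 1756 higher in cTEC (11.2%) and 3307 lower (21.2%), around a median log2 difference of -0.14. Of the members 3 of 10 were called, close to that background. The fit had few residual degrees of freedom, so its p-values rested mostly on spread pooled over genes. Higher in adult cTEC were Dnajb1, with a log2 difference of 2.002 (SE 0.442, adjusted p = 0.000190), and Hspa1a, with 1.13 (SE 0.394, adjusted p = 0.0210), and Hspb1 was lower, at -1.09 (SE 0.403, adjusted p = 0.0292). Hspd1 (-0.84, adjusted p = 0.0860), Hsph1 (-0.79, adjusted p = 0.120), Hspa8 (-0.69, adjusted p = 0.229) and Hspe1 (-0.56, adjusted p = 0.306) lay toward mTEC without a call, and Hspa1b (0.84, adjusted p = 0.105) toward cTEC. The fold of cTEC over mTEC for Dnajb1 was 8.004 in data set 1 and 2.20 in data set 2, and for Hspa1a 2.90 and 1.81. Without adult cTEC replicate 1, the difference was 0.80 for Dnajb1 and 0.24 for Hspa1a, and neither was called. The call of Hspa1a was also lost without each of the other 3 adult libraries, at 0.80 to 1.80, that of Dnajb1 without adult mTEC replicate 2 (2.11), and that of Hspb1 without every library but adult cTEC replicate 1. No member was called in a fit without the data set term. Without the filter on low counts Hspa1a was not called (1.07), and Hspd1 was called lower with DESeq2 (-0.86) and with all deposited cells (-0.96). Markers of other cells also differed between the lineages. The thymocyte sum was 48.6 and 114 CPM in adult cTEC and 38.0 and 37.5 CPM in adult mTEC. The mesenchymal sum was 510 and 318 CPM against 99.7 and 69.1 CPM, and the erythroid sum 1.39 and 2.23 CPM against 84.7 and 108 CPM. The part of these markers in the lineage difference was not tested.

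Adult cTEC cells with and without a UMI of Psmb11 or Prss16 differed most in Hspb1. In replicate 1 the 326 cells with such a UMI held 235 CPM and the 167 cells without held 628 CPM, and in replicate 2 the 426 cells with held 44.7 CPM and the 109 without held 747 CPM. Cells without were shallower, at a median of 2963 against 4638 UMIs in replicate 1 and 5302 against 7684 in replicate 2. Hspa1a, at 765 against 559 CPM in replicate 1 and 205 against 249 CPM in replicate 2, had no common direction, and neither did Dnajb1, at 1823 against 1626 and 269 against 571 CPM. With only the cells that had such a UMI in the adult cTEC libraries, a choice made after seeing the data, the cTEC against mTEC difference of Hspb1 was -2.20, that of Dnajb1 1.90 and that of Hspa1a 1.14, and the same 3 members were called.

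To compare the share of cells with a transcript, each cell was thinned to 2000 UMIs, and shallower cells, from 0 to 123 per library, were left out. At this depth 0.669% of E13.5 TEC (95% exact binomial interval 0.346 to 1.17), 1.78% of E15.5 cTEC, 3.05% of E17.5 cTEC and 14.9% of NB cTEC had an Hspa1a UMI. The share was 49.5% and 29.5% in adult cTEC and 27.4% and 18.6% in adult mTEC. Adult cTEC replicate 1 had lost 65 of its 493 cells as too shallow. At 1000 UMIs, where it lost none, 33.9% of its cells had an Hspa1a UMI. At that depth the share was 17.3% in adult cTEC replicate 2 and 18.3% in adult mTEC replicate 1. Before thinning, these shares ran from 2.45% in E13.5 TEC to 61.9% in adult cTEC replicate 1, and the order of E13.5, E15.5, E17.5 and NB was the same, while adult mTEC replicate 1 (54.3%) then lay above adult cTEC replicate 2 (52.3%). Hspa1b was found in 0.0558% of E13.5 TEC, 1 cell of 1793, and in 7.01% and 7.47% of adult cTEC. Dnajb1 was found in 13.4%, 6.73% and 3.47% of the fetal cells by age, 28.4% of NB cTEC, 68.0% and 33.9% of adult cTEC and 32.6% and 23.2% of adult mTEC. For Hspb1 the adult mTEC libraries led with 41.0% and 40.4%, ahead of adult cTEC with 21.3% and 13.4% and of NB cTEC with 1.83%. At the other end, Hsp90ab1 was found in 96.4% to 100% and Hspa8 in 87.4% to 98.3% of the cells of every library. Free RNA in the droplets can place a UMI in a cell that does not make the transcript. The 168 thymocyte-like droplets of the NB library, left out above, had an Hspa1a UMI in 16.1% (10.9 to 22.5) and a Dnajb1 UMI in 32.7% (25.7 to 40.4) at the same depth, with median depths of 8654.5 UMIs against 6024 in the NB epithelial-like cells. The levels there were 130 and 263 CPM, beside 112 and 229 CPM in NB cTEC. These droplets held Psmb11 at 1676 CPM, against 1339 CPM in the epithelial-like cells, and 95.8% of them had a Psmb11 UMI, so they carried cTEC transcripts and gave no background share.

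**Figure D3:**
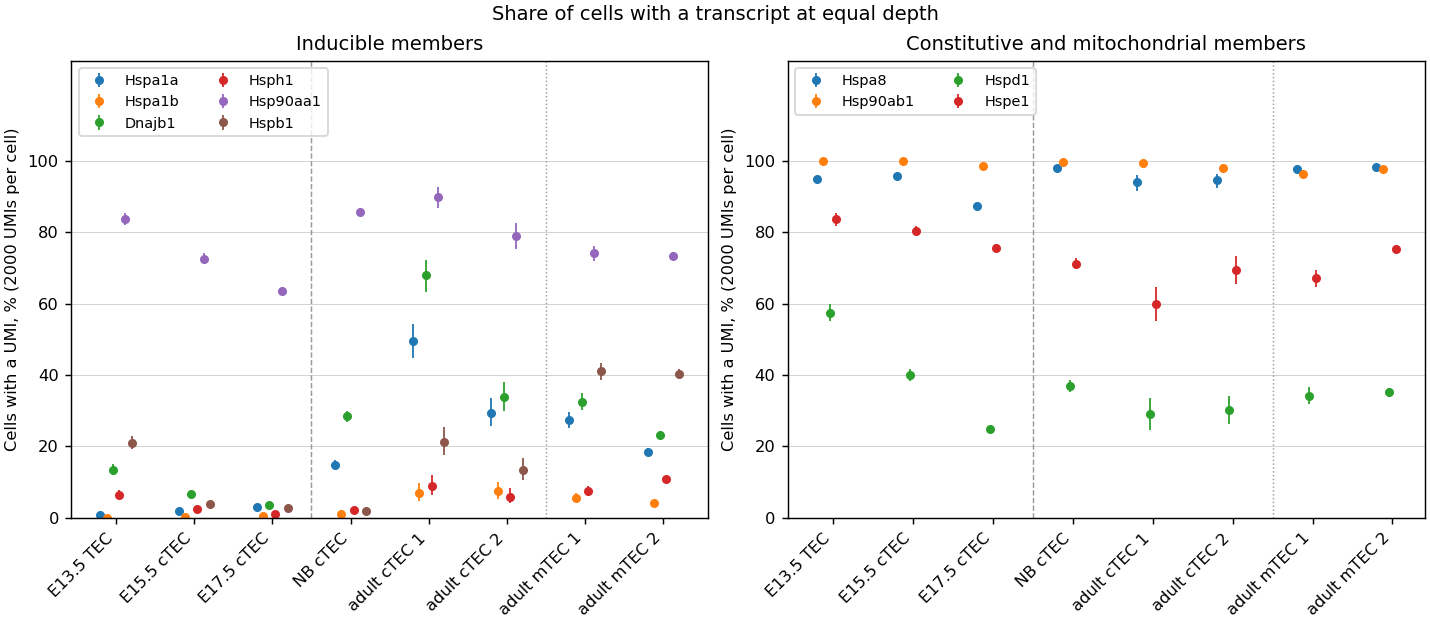
Share of cells with at least 1 UMI of each member after thinning to 2000 UMIs per cell, with 95% exact binomial intervals over cells, which cover counting error only. Hspa1a went from 0.669% of cells in E13.5 TEC to 49.5% in adult cTEC replicate 1, while Hsp90ab1 stayed at or above 96.4%.

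Relative to its mean, the sum of the inducible members varied more between cells than that of Hspa8 and Hsp90ab1 in all 8 libraries. Before birth the inducible sum was mostly Hsp90aa1, so the fetal values speak mainly for this gene. At 2000 UMIs per cell, the sum of the 6 inducible members had a median of 3, 1 and 1 UMIs in the E13.5, E15.5 and E17.5 libraries, 3 in NB cTEC, 6 and 3 in adult cTEC and 3 in both adult mTEC libraries. Its upper 5% of cells began at 6, 4 and 3 UMIs before birth, at 7 in NB cTEC, at 27 and 8 in adult cTEC and at 12 and 10 in adult mTEC. The Fano factor, the variance over the mean, which is 1 for counting error alone, was 1.37, 1.23 and 1.15 in the fetal libraries, 1.53 in NB cTEC, 8.60 and 2.43 in adult cTEC and 5.32 and 4.21 in adult mTEC. For the sum of Hspa8 and Hsp90ab1 it was 1.62, 1.42 and 1.22 in the fetal libraries, 1.35 in NB cTEC and 1.62 to 2.56 in the adult libraries. The Fano factor grows with the mean, which was lower for the inducible sum, and the variance beyond counting error divided by the squared mean was therefore taken too. It was 0.126 to 0.143 for the inducible sum against 0.0319 to 0.0438 for the constitutive sum in the fetal libraries. In NB cTEC it was 0.181 against 0.0309, and in adult cTEC 0.839 and 0.414 against 0.129 and 0.0833. In adult mTEC it was 1.013 and 0.884 against 0.128 and 0.138. For the mitochondrial pair it was 0.158, 0.0540 and 0.0213 in the fetal libraries and 0.0621 in NB cTEC. It was 0.625 and 0.109 in adult cTEC and 0.462 and 0.298 in adult mTEC. In E13.5 TEC the mitochondrial pair thus lay above the inducible sum, which had 0.132.

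**Figure D4:**
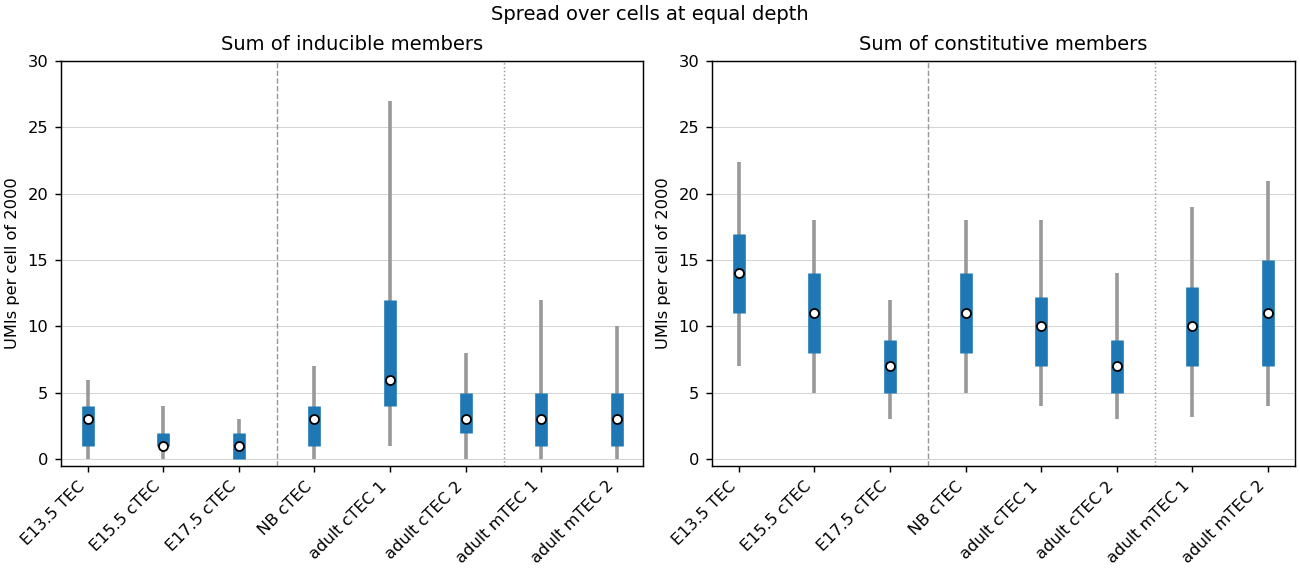
UMIs per cell of 2000 for the sum of the 6 inducible members and the sum of the 2 constitutive members. White points are medians, thick bars the middle 50% of cells and thin bars the range from the 5th to the 95th percentile. The inducible sum reached 27 UMIs at the 95th percentile in adult cTEC replicate 1 and at most 12 in the other libraries.

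Hspa1a and Hspa1b tended to be found in the same adult cells. Among adult cTEC with an Hspa1b UMI, 83.3% (25 of 30) in replicate 1 and 66.7% (26 of 39) in replicate 2 also had an Hspa1a UMI, against 47.0% and 26.5% of the other cells. In adult mTEC the shares were 51.7% against 26.0% and 35.4% against 17.8%, and in NB cTEC 31.7% (13 of 41) against 14.7%. With so few positive cells before birth, 0 of 1, 0 of 12 and 2 of 35, no comparison could be made there. Across cells of one library, Spearman's correlation of the inducible sum with the immediate early sum was -0.05, -0.03 and -0.02 in the fetal libraries, 0.20 in NB cTEC, 0.50 and 0.36 in adult cTEC and 0.36 and 0.26 in adult mTEC. With the constitutive sum, the inducible sum correlated at 0.14, 0.09 and 0.07 in the fetal libraries and at 0.08 in NB cTEC. These values were 0.36 and 0.18 in adult cTEC and 0.08 and 0.10 in adult mTEC. The fetal inducible sum was mostly Hsp90aa1. All these are descriptions over 428 to 8261 cells that share a library and a depth. The same correlation of Hspa1a plus Hspa1b with the sum of Dnajb1, Hsph1 and Hsp90aa1 was 0.25 in adult cTEC replicate 1 and 0.18 or less elsewhere.

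Cycling cells, those with a proliferation score above 0, made up 77.0% of E13.5 TEC, 30.1% of E15.5 cTEC, 14.8% of E17.5 cTEC, 11.8% of NB cTEC, 1.83% and 8.79% of adult cTEC and 11.7% and 14.0% of adult mTEC. By a Mki67 or Top2a UMI, the shares were 69.2%, 43.5% and 35.5% before birth, 22.0% in NB cTEC, 16.0% and 15.3% in adult cTEC and 16.7% and 34.1% in adult mTEC. Within a library the members did not move together. The log2 ratio of cycling over resting cells, taken after adding 5 CPM to both levels, which draws the ratio of a low level toward 0, was below 0 for Hspa1a and Hspa1b together in all 8 libraries, at -0.58, -0.58 and -0.66 before birth, -0.52 in NB cTEC, -0.40 and -1.39 in adult cTEC and -1.15 and -0.84 in adult mTEC, and its 95% interval for counting error reached above 0 in adult cTEC replicate 1. Without the added 5 CPM, a choice made after seeing the data, it was -1.18, -0.91 and -0.88 before birth, -0.54 in NB cTEC, -0.41 and -1.44 in adult cTEC and -1.18 and -0.88 in adult mTEC, and the fetal ratios lay within the range of the adult ones. Of 79 values of single members with UMIs on both sides, 8 moved beyond their intervals by this choice and none changed sign. Hspb1 was also lower in cycling cells, at -1.47, -0.41 and -0.35 before birth, -0.91 and -2.13 in adult cTEC and -2.53 and -1.81 in adult mTEC, with NB cTEC at 0.08. By this score Hspd1 was above 0 in all 8 libraries, at 0.79, 0.40 and 0.49 before birth, 0.32 in NB cTEC, 0.15 and 0.27 in adult cTEC and 1.45 and 1.17 in adult mTEC. Hsp90aa1, grouped with the inducible genes, went with the cycling cells, at 0.67, 0.51 and 0.67 before birth, 0.37 in newborn cells, 0.54 in the second adult cTEC library and 0.95 and 1.005 in adult mTEC, and stood at -0.08 in adult cTEC replicate 1, which had 9 cycling cells. Hsp90ab1 lay between -0.16 and 0.48. When cycling cells were instead those with a Mki67 or Top2a UMI, Hspd1 was at -0.12 in adult cTEC replicate 1 and at 0.11 to 1.09 in the other 7 libraries, Hspa1a with Hspa1b stayed below 0 in all 8, at -1.21 to -0.18, and 42 of the 80 values of single members lay beyond the intervals of those by the score. Because E13.5 TEC were mostly cycling, resting cells alone were also compared, and there the edgeR slope per stage called the same 3 members.

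**Figure D5:**
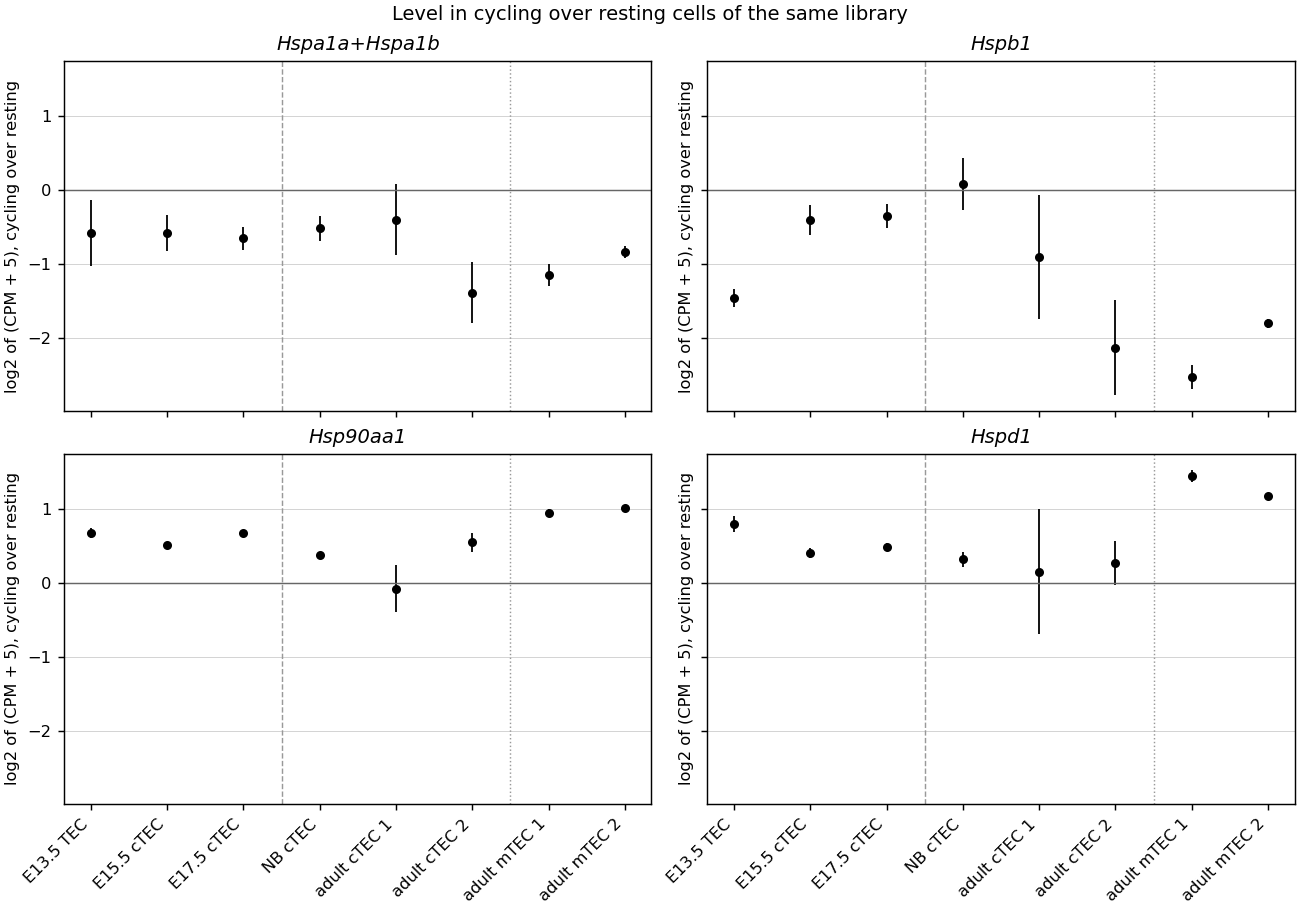
Log2 ratio of CPM + 5 in cycling over resting cells of the same library for 4 members or pairs, with 95% intervals for counting error. Cycling cells are those with a score above 0. By this score Hspa1a with Hspa1b lay below 0 and Hspd1 above 0 in all 8 libraries, although intervals crossed 0 in adult cTEC replicate 1 for the first and in both adult cTEC libraries for the second.

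Adult mTEC are a mixture of subsets, and clusters of each library were named from markers, as mTEC I (Krt5, Krt14), mTEC II (Aire), mTEC III (Krt10, Ivl) and mTEC IV (tuft cells). Unnamed clusters took up 421 of 1585 cells in replicate 1 and 3698 of 5615 in replicate 2, where no mTEC II cluster could be named. A cluster of 464 cells led by Ccl21a, with Lypd1, Igfbp5 and Scx, was named mTEC I in replicate 2. One of 224 cells with the same top genes was left unnamed in replicate 1. Ccl20, Ccl9 and Hamp were top genes of the mTEC III cluster in replicate 1 and of an unnamed cluster of 93 cells in replicate 2. The names therefore do not cover the same cells, and a subset's values in the 2 replicates are not like for like. Hspb1 was at 1250 and 801 CPM in mTEC I-like cells and at 855 and 2327 CPM in mTEC III-like cells of replicates 1 and 2, against 204 CPM in the mTEC II-like cells, 177 and 385 CPM in the tuft-like cells and 64.8 and 120 CPM in cycling cells. Keratin-rich subsets thus held the most Hspb1 in either library. Hspa1a was highest in mTEC I-like cells, at 545 and 285 CPM, and lowest among the named subsets in cycling cells, at 102 and 62.7 CPM. The sum of Hspa1a and Hspa1b was 585 and 308 CPM in mTEC I-like cells and 312 and 339 CPM in mTEC III-like cells, so that mTEC III-like cells led in replicate 2. Dnajb1 also led in mTEC I-like cells of replicate 1 (409 CPM) and in mTEC III-like cells of replicate 2 (351 CPM). Hspd1 was highest in cycling cells, at 636 and 542 CPM, and stood at 146 and 197 CPM in mTEC I-like cells. Hspa8 was lowest in mTEC III-like cells, at 2005 and 1752 CPM. Medians of depth ran from 6689 UMIs in mTEC III-like cells of replicate 2 to 20257 in its cycling cells. The clusters were drawn from these same cells, so no test was made.

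The remaining genes of the chaperone network were counted by lists, beside the 4.97% of all genes called higher and 2.91% called lower in the slope per stage. In this slope none of the 3 tested heat shock factors, 19 HSP90 co-chaperones or 13 subunits of the TRiC and prefoldin chaperonins was called, and Hsf1 itself lay between 12.5 and 22.4 CPM in all libraries. Of 21 J-domain proteins 2 rose, Dnaja4 (0.77 per stage, SE 0.098) and Dnajb4 (0.54, SE 0.095), and 1 fell, Dnajc9 (-0.49, SE 0.098), a histone co-chaperone. Of 5 genes listed as small heat shock proteins 2 rose, Cryab (0.89, SE 0.085), an alpha crystallin, and Hspb2 (0.85). Hspb2 lay below the level set for naming and was named after its value was seen. Of 18 endoplasmic reticulum chaperones and stress genes 3 rose, Dnajb9 (1.17), Ddit3 (0.56) and Herpud1 (0.45). No call was made among 7 other HSP70 and HSP110 genes, 10 nucleotide exchange factors or 8 mitochondrial proteases and chaperones. Of 20 immediate early genes 15 rose, with Atf3 (3.47), Klf2 (3.14) and Fos (1.86) among the named ones. For comparison, the median slope was 1.37 over the immediate early list, 0.84 over the 6 inducible members and -0.04 over the constitutive pair, against 0.00 over all genes tested. Across birth, 7 of the 20 immediate early genes were called higher, among them Atf3 (11.17), Fos (6.13) and Egr1 (5.04), and Dnajb9 (3.46) was the only call among the chaperone lists.

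Between adult cTEC and mTEC, the list counts stand beside the 11.2% of all genes called higher in cTEC and the 21.2% called lower. Of 18 endoplasmic reticulum genes 8 were lower in cTEC and none higher, led by Herpud1 (-1.93), Sdf2l1 (-1.80) and Manf (-1.55), and the list's median was -0.84 against -0.14 over all genes. The chaperonin subunits Tcp1 (-1.59), Cct2 (-1.21) and Cct5 (-1.07) were the 3 of 13 called, all lower in cTEC, a share near that of all genes. Among genes listed as small heat shock proteins, Hspb8 (1.22) was higher in cTEC. Hspb11 (-2.07), which shares the symbol stem, was lower. So was Cryaa, which had 0 UMIs in both adult cTEC libraries, allowing up to 1.39 and 0.743 CPM, and 32.3 and 39.2 CPM in adult mTEC. Among J-domain proteins Dnajb4 (2.43) was higher and Dnajb11 (-1.27) lower. Immediate early genes were called in both directions, 7 higher with Fosb (1.83), Ier3 (1.80) and Nr4a1 (1.75), and 2 lower, Gadd45b (-1.89) and Ier5 (-1.88). Single calls were Hspa2 (-1.30) of 6 other HSP70 and HSP110 genes, Bag1 (-1.19) of 10 nucleotide exchange factors, St13 (1.12) of 18 HSP90 co-chaperones and Htra2 (-1.14) of 8 mitochondrial proteases and chaperones. Of 13 other genes of the response to damaged protein 2 were lower in cTEC, Ddit4 (-1.40) and Hmox1 (-1.09), and none of 4 heat shock factors was called.

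Over the 8 libraries, the genes most like Hspa1a plus Hspa1b in log2(CPM + 1) among 4247 candidates were Zc3hav1 (Pearson's r = 0.988), Pde4b (0.982), Ddit3 (0.981), Cst3 (0.973) and Snapc5 (0.971). Zc3hav1, an antiviral RNA-binding protein, ran from 3.28 CPM in E13.5 TEC to 38.2 CPM in NB cTEC and 82.9 and 55.4 CPM in adult cTEC. For Hsp90ab1 they were Smarca4 (0.989), Nap1l4 (0.988), Gpatch4 (0.987), Rexo1 (0.985) and Jarid2 (0.983). Smarca4, the chromatin remodelling ATPase, ran from 189 CPM in E13.5 TEC to 62.6 CPM in adult cTEC replicate 2. The points share preparation and data set, and the correlations are descriptions.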

How the data were processed

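Per the labels, 10x Chromium v2 libraries were made, and the submitters' processing notes name bcl2fastq 2.17, STAR 2.5.1b, Cell Ranger 2.0.1 and mm10. The deposited matrices hold raw UMI counts per gene and called cell, with no normalization. The matrix headers of data set 2 name a later Cell Ranger version. Cells above 5% mitochondrial UMIs or 5000 genes were left out, as in the methods of the study (25750 of 28334 cells kept), and no doublet caller was run. Cells were clustered per data set (scanpy 1.11.5, 2000 variable genes, 20 components, Leiden resolution 0.8), and clusters with non-epithelial markers at a fold of 4 were removed. A haemoglobin-led cluster of the E17.5 library was kept, by a rule set on the data that asked for more than haemoglobin genes. Counts were summed per library and tested with the quasi-likelihood test of edgeR 4.0.16 in R 4.3.3 after filterByExpr and TMM scaling, with Benjamini-Hochberg adjustment at 0.05. DESeq2 1.42.0 was an alternative. The scripts were tested on simulated data. Replicates are named in accession order, and the labels do not say whether they are separate animals, so p-values speak only for these samples. The edgeR test also pools spread over genes, and the lineage fit, with few residual degrees of freedom, rested mostly on that pooled spread. Named list genes were up to 3 per direction with the largest change among those called at an average log2 CPM above 3. Genes most like a member were the 5 with the highest r at a mean CPM of 32 or more, leaving out ribosomal protein genes. The members and lists were chosen with earlier results of these data known. Transgenic and bulk libraries of the study were not used here, and the age slope of 1 gene list is not reported here.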

Additional observations from a re-analysis of the deposited data

Results flagged for a closer look

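Hsph1 was the 1 member for which the ratio of cycling over resting cells pointed one way in all 3 fetal libraries and the other way in all 4 adult ones, with no test of the difference. The log2 ratio of CPM + 5 was 0.31 to 0.64 before birth and -0.61 to -0.19 in the adult, a difference of means, adult minus fetal, of -0.88, and NB cTEC stood at 0.19. Without the added 5 CPM it was 0.42 to 0.78 before birth and -0.75 to -0.21 in the adult, and the difference was -1.12. In adult cTEC the ratio rested on 2 and 8 UMIs in 9 and 47 cycling cells, and the intervals for counting error reached 0 in both of those libraries and in adult mTEC replicate 1.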

How the results depend on the processing

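Across birth, the 13 genes called became 510 without the filter on low counts, 1702 with DESeq2, 35 without the data set term, 35 in resting cells, 64 with only adult cTEC that had a Psmb11 or Prss16 UMI (added after seeing the data), 2 without E13.5 TEC, 0 without E15.5 cTEC, 0 without E17.5 cTEC, 588 without NB cTEC and 0 in data set 1 alone, and 0 without either adult cTEC replicate. Members called, 0 as reported, numbered 3 without the filter, 3 with DESeq2 and 3 without NB cTEC. The difference of Hsph1 turned to -0.022 in data set 1 alone and ran from -0.018 without adult cTEC replicate 2 to 0.33 without replicate 1, and that of Hspb1 from -0.11 without replicate 1 to 0.86 without replicate 2. The 1127 genes of the slope became 2900 with DESeq2, 666 in resting cells, 275 without E15.5 cTEC, 467 without E17.5 cTEC, 449 in data set 1 alone and 23 to 479 without one adult cTEC replicate. Members called, 3 as reported, became 5 with DESeq2, 2 without the data set term, 2 without E15.5 cTEC, 2 without E17.5 cTEC, 2 in data set 1 alone and 1 to 2 without a replicate, and the slope of Hsph1 ran from -0.12 without replicate 1 to 0.0076 without replicate 2 and that of Hspb1 from -0.68 to 0.24. Leaving out the haemoglobin-led cluster, also added later, changed no member's call in either fit. In the lineage comparison, the 5063 genes became 2604 with DESeq2 and 1528 to 2874 without one library, fits that also dropped the data set term because no residual degrees of freedom were left, and the lone library is assumed to vary like the other group. Members called, 3 as reported, became 2 without the filter, 4 with DESeq2, 4 with all deposited cells, 0 without the data set term and 0 to 1 without one library. The causes of these shifts were not tested, apart from the fewer samples. Of 470 values of single members under an alternative, 5 turned direction. With 1 library at each age before the adult, no stage could be tested on its own. Shares of cells depend on the depth to which cells are thinned, moving beyond their intervals in 79 of 80 values at 1000 and 68 of 80 at 3000 UMIs. Of 80 CPM values, 62 moved when ribosomal protein, haemoglobin and mitochondrial genes were left out of the total. In resting cells 42 moved, and with all deposited cells 11. Ribosomal protein genes made up 24.7% to 26.5% of UMIs in the fetal libraries and 13.3% to 22.1% in the postnatal ones. No paired analysis was possible because the labels carry no replicate numbers, beyond the data set term, which in the lineage comparison sets the cTEC and the mTEC library of a data set against each other.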
